A study of Mus musculus with 9 samples.

Results

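The genes described here make, regulate and move sterols and fatty acids in the mouse retina. They were chosen by name, as the 32 rows of the gene count table (of 26683 genes) that carry the symbols of 19 cholesterol synthesis enzymes, 4 genes of SREBP control, 5 genes of sterol transport, efflux and LXR signalling, and 4 fatty acid synthesis genes. Bulk RNA sequencing covered 9 retina libraries, 3 per group, all collected at postnatal day 17 and all under 1 batch label. Normoxic mice did not undergo OIR (oxygen-induced retinopathy), where pups kept in high oxygen lose retinal capillaries and later grow abnormal ones in room air. PBS mice had OIR and were injected into the vitreous with saline at postnatal day 15. Gel mice had OIR and received at the same age PCC1/PHCF hydrogel, where PCC1 is the usual short name of procyanidin C1, a plant polyphenol. The library names of the Normoxic group begin with WT, the labels give no strain, sex or further genotype, and they leave unsaid whether Normoxic eyes were injected. No group with an empty hydrogel was analysed here, so effects of PCC1 and of its carrier cannot be told apart. No label ties a replicate to its own animal, so p-values measure only the spread between these libraries.

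Cells build cholesterol from acetyl-CoA through mevalonate, isoprenoids, squalene and lanosterol. SREBP-2, encoded by Srebf2, switches on this pathway when sterols in the endoplasmic reticulum are low: SCAP escorts it to the Golgi, and INSIG-1 holds it back when sterols are plentiful. SREBP-1, from Srebf1, acts mainly on fatty acid synthesis. When oxysterols accumulate, the nuclear receptors LXR alpha (Nr1h3) and LXR beta (Nr1h2) turn on the exporters ABCA1 and ABCG1. In the retina, sterols are made locally, in Muller glia and neurons, and are also taken up from the blood, and photoreceptors need them for their outer segment membranes.

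Total counts were 29324142 to 35663470 per library, and all 32 genes passed the filter on low counts, as did 17362 genes in all. The libraries carried retinal RNA: the summed level of 8 rod photoreceptor markers was 47200 to 66900 CPM, which scales each library's counts to 1000000. In this bulk tissue, fewer cells of a type and less RNA per cell cannot be told apart. Summed markers of the pigment epithelium (27.1 to 229 CPM over all libraries), of the lens (1.18 to 26.8 CPM) and of adipocytes (0.0637 to 0.75 CPM) were low by comparison. Those of the pigment epithelium were 105, 49.5 and 27.1 CPM in Normoxic 1 to 3 and 61.1, 63.2 and 229 CPM in PBS 1 to 3. In Gel 1 to 3 they were 171, 222 and 142 CPM, above all Normoxic libraries, while PBS overlapped both other groups. None of these 7 markers was called in any comparison. The 6 oligodendrocyte and myelin markers summed to 63.4 to 88 CPM, with 1 of them, Cnp, higher in PBS than in Normoxic.

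The 32 genes covered a wide range of levels. On the deposited FPKM scale, which divides by gene length and so allows levels of different genes to be compared, Scd2, the main stearoyl-CoA desaturase of neural tissue, was highest in Normoxic at 80.6 ± 2.03 FPKM (SD, n = 3). Scap followed at 44.2 ± 2.54 FPKM and Srebf2 at 41.3 ± 1.51 FPKM. The highest cholesterol synthesis enzyme was Fdps, which makes farnesyl diphosphate, at 34.7 ± 1.79 FPKM. Its range across Normoxic libraries lay close to that of Fasn, the fatty acid synthase, at 34.2 ± 2.31 FPKM, so the order of these neighbours is within the spread. At the other end stood Scd1 (2.05 ± 0.272 FPKM), Hsd17b7, a sterol ketoreductase (1.64 ± 0.181 FPKM), and Nr1h3 (1.30 ± 0.140 FPKM). Nr1h2 was far above its paralogue, at 26.0 ± 2.38 FPKM, and Abcg1 was above Abca1 (22.2 ± 0.530 and 4.15 ± 0.558 FPKM).

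**Figure D1:**
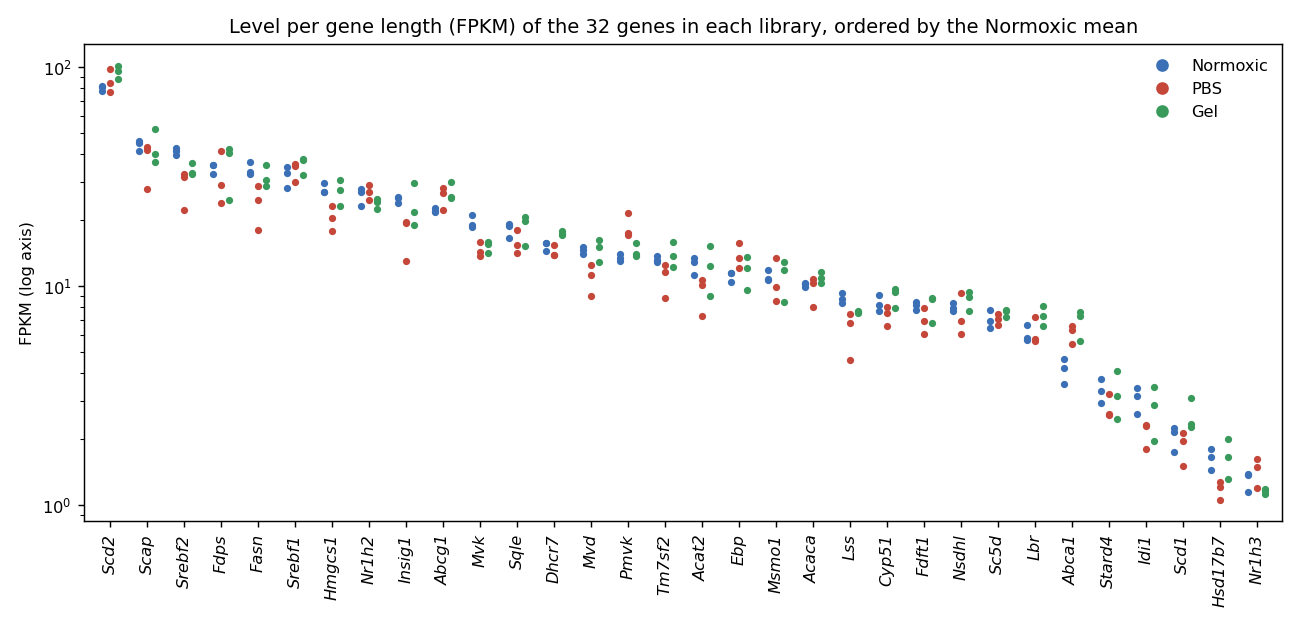
Level per gene length (FPKM, log axis) of the 32 genes in each of the 9 libraries, with 1 point per library coloured by group and genes ordered by their Normoxic mean. Scd2 stood highest in Normoxic at 80.6 FPKM and Nr1h3 lowest at 1.30 FPKM.

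Some counts may be shared with other genes. In the GENCODE M21 annotation (GRCm38, another build than the GRCm39 that the submitters' processing notes name), exons of Cyp51, Fdft1, Lbr and Srebf1 overlap exons of a protein-coding gene on the opposite strand (Akap9, Ctsb, Dnah14 and Rai1). Exons of Tm7sf2 and Fdps overlap those of Vps51 and of the gene model Gm43738 on the same strand. Scd1 and Scd2 are close paralogues. No source used here gives the strand setting of the counting, so the values of these genes are less certain.

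Promoter letters were compared between the roles. Of the 32 genes, 25 had an entry in the RefSeq promoter table (GRCm38.p6, 250 bases before to 50 after the start), and Fdps, Fdft1, Sqle, Stard4, Abcg1, Scd1 and Scd2 did not. For 19 of the 25, the bases just after a listed start were found in a GENCODE M21 transcript of the gene. The starts of the others are less certain. The letters CCAAT, the box bound by NF-Y, a partner of SREBP at sterol genes, were searched on both strands, and so was TCACNCCAC, a form of the sterol regulatory element (SRE) bound by SREBP. At least 1 CCAAT was present in 15 of 16 cholesterol synthesis enzymes (all but Acat2), against 41.1% of all 27025 genes in the table. Of these enzymes, 10 had at least 2 copies in a single promoter, and the share of all genes with as many was not taken. CCAAT was present in 3 of 4 SREBP control genes, in 1 of 2 fatty acid synthesis genes (Fasn) and in 0 of 3 genes of sterol efflux and LXR signalling (Abca1, Nr1h2, Nr1h3). The SRE letters were found in 1 of the 25 genes, Hmgcs1, and in 1.44% of all genes. The LXR element was searched on both strands as 2 direct copies of AGGTCA with 4 bases between them. It was found in 0 of 25 genes. With these exact letters in only 0.0148% of all genes, 0 of 25 cannot show that an LXR element is absent. Forms with other letters were not searched. The 150 bases before the start are printed for 6 genes, 5′ to 3′ along each gene. Of these, Abca1, Pmvk and Srebf2 passed the edgeR test in a comparison below, and Hmgcs1, Mvk and Fasn did not. Capitals mark the SRE letters in Hmgcs1 and CCAAT or its reverse complement wherever it occurs. Abca1 has no CCAAT in this stretch, and 2 of the 3 copies in Fasn overlap. The stretches lie at chr13:119690201-119690350 (plus strand), chr5:114444119-114444268 (plus strand), chr3:89454391-89454540 (plus strand), chr15:82147119-82147268 (plus strand), chr11:120824548-120824697 (minus strand) and chr4:53159896-53160045 (minus strand) of GRCm38.p6, and that of Pmvk is the first of 2 listed starts. A match of letters is a description and not a site shown to be bound.
Hmgcs1: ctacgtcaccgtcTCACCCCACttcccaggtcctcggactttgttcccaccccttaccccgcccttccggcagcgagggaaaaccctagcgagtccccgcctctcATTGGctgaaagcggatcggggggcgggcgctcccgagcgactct
Mvk: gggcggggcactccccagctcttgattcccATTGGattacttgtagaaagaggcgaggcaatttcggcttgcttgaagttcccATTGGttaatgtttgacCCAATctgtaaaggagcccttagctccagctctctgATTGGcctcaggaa
Pmvk: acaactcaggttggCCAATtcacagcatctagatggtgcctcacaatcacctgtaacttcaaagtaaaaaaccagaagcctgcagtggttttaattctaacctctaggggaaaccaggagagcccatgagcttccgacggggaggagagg
Srebf2: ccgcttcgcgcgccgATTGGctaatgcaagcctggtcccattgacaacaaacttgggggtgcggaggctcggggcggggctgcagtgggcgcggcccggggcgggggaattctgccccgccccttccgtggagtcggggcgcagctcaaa
Fasn: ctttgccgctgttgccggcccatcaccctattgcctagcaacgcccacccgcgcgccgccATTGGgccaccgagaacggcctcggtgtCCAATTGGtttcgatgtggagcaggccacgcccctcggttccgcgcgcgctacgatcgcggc
Abca1: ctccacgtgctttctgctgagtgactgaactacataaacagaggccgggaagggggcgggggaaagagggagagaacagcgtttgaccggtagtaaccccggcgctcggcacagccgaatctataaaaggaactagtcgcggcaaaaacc

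PBS and Normoxic were compared to see how sterol and lipid genes stand in saline-injected OIR retinas. Srebf2, which encodes the factor that drives cholesterol synthesis, fell, while Pmvk, the phosphomevalonate kinase, and Abca1, the exporter that loads cholesterol onto lipid-poor apolipoproteins, rose. The remaining 29 genes did not pass the test, in which the edgeR quasi-likelihood p was adjusted over all 17362 genes. The 3 calls make up 9.38% of the 32 genes, against 6.34% of all genes tested, of which 4.31% rose and 2.03% fell. Most enzymes lay lower in PBS without passing: the log2 fold change was below 0 in 15 of 19 (78.9%, against 48.7% of all genes), with a median of -0.19, against 0.01 over all genes. The median was -0.10 without PBS 1, where 12 of 19 were below 0, and -0.32 without PBS 3. Muller glia markers were split in PBS, with 2 of 8 called lower, 0 higher and a median of -0.25. The means of Rlbp1, Glul, Aqp4, Kcnj10, Abca8a and Dkk3 were lower in PBS, and those of Slc1a3 and Sox9 higher. That of Sox9 rested on PBS 1 (46.5 CPM), with 21.7 and 17.3 CPM in PBS 2 and 3 against 21.4 to 24.1 CPM in Normoxic. Slc1a3 lay above every Normoxic library in every PBS library (252 ± 25.6 against 218 ± 3.89 CPM, SD, n = 3). The part of Muller glia in the enzyme values was not tested.

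The Abca1 level (Entrez 11303) was 48.7, 44.1 and 37.1 CPM in Normoxic 1 to 3 and 65.9, 68.8 and 56.7 CPM in PBS 1 to 3. All PBS libraries were above all Normoxic libraries. The log2 fold change was 0.57 ± 0.13 (SE, edgeR adjusted p = 0.0296), or 1.48-fold. Abcg1, which exports cholesterol to lipoprotein particles, was at 129 ± 3.08 CPM in Normoxic and 149 ± 17.7 CPM in PBS (SD, n = 3), a difference of 0.22 ± 0.11 on the log2 scale that did not pass (edgeR adjusted p = 0.268). Nr1h2 (0.06 ± 0.11) and Nr1h3 (0.15 ± 0.21) also did not pass. Summed microglia and macrophage markers, cells that also express Abca1, were 48.6 to 53.5 CPM in Normoxic and 149 to 228 CPM in PBS, with 8 of 10 higher and 0 lower, and their part in the Abca1 result was not tested.

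The Pmvk level (Entrez 68603) was 44.2, 45.8 and 47.7 CPM in Normoxic 1 to 3 and 73.6, 59.6 and 58.6 CPM in PBS 1 to 3. The groups did not overlap, and PBS 1 was the highest library. The log2 fold change was 0.49 ± 0.12 (SE, edgeR adjusted p = 0.033). Its neighbours in the mevalonate pathway pointed the other way without passing. The level of Mvk, the mevalonate kinase that acts just before it, was 34.0, 33.1 and 37.7 CPM in Normoxic and 24.5, 25.4 and 28.2 CPM in PBS, free of overlap (-0.41 ± 0.12, edgeR adjusted p = 0.0636). Hmgcs1, the HMG-CoA synthase at the entry of the pathway, was at 125, 113 and 114 CPM in Normoxic and 75.7, 98.5 and 86.1 CPM in PBS (-0.43 ± 0.13, edgeR adjusted p = 0.0757). Mvd, the decarboxylase that acts just after Pmvk, stood at 25.7, 26.6 and 24.8 CPM in Normoxic and 15.9, 22.1 and 19.8 CPM in PBS (-0.41 ± 0.14, edgeR adjusted p = 0.114).

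**Figure D2:**
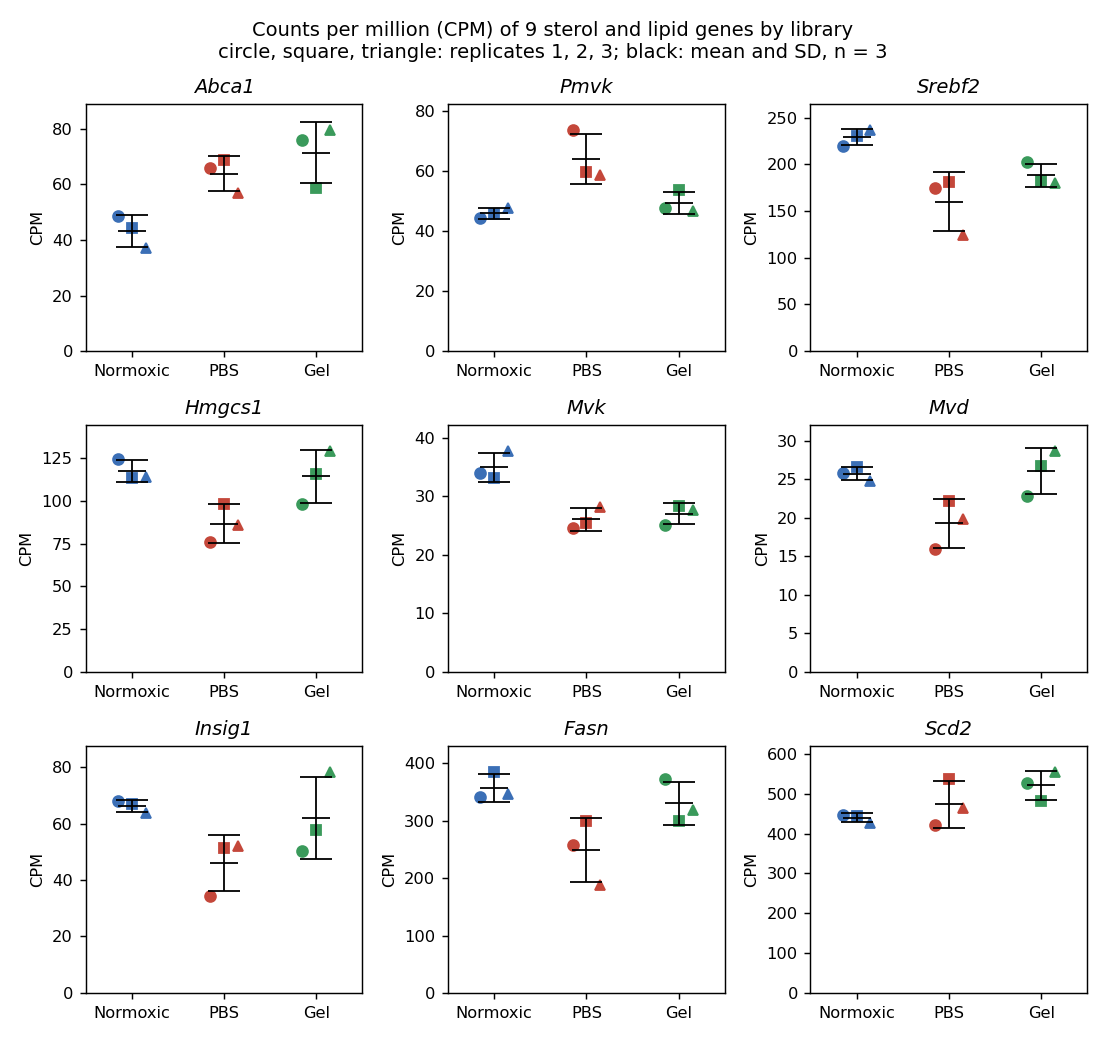
CPM of 9 genes in every library (y axis, starting at 0), by group (x axis); marker shapes show replicates 1 to 3 and black bars the mean and SD of 3 libraries. Abca1 and Pmvk were higher in all PBS than in all Normoxic libraries, and Srebf2, Hmgcs1, Mvk, Mvd, Insig1 and Fasn lower, while Scd2 overlapped.

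The Srebf2 level (Entrez 20788) was 220, 231 and 236 CPM in Normoxic 1 to 3 and 175, 181 and 124 CPM in PBS 1 to 3. Every PBS library was below every Normoxic library, and PBS 3 was the lowest. The log2 fold change was -0.51 ± 0.13 (SE, edgeR adjusted p = 0.0403). Insig1, itself a target of SREBP, was at 68.0, 67.0 and 63.8 CPM in Normoxic and 34.5, 51.3 and 52.1 CPM in PBS, a difference of the same size with a wider spread (-0.52 ± 0.18, edgeR adjusted p = 0.136). Srebf1 (0.09 ± 0.12) and Scap (-0.23 ± 0.17) overlapped between the groups.

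The later enzymes of the pathway were mixed. Lss, which closes squalene epoxide into lanosterol, was at 60.4, 64.6 and 58.2 CPM in Normoxic and 47.0, 51.4 and 31.7 CPM in PBS, with no overlap (-0.49 ± 0.14, edgeR adjusted p = 0.0677). Hsd17b7 was at 9.30 ± 1.03 CPM in Normoxic and 6.74 ± 0.654 CPM in PBS (-0.45 ± 0.18), and Idi1, the isopentenyl diphosphate isomerase, at 8.77 ± 1.20 and 6.14 ± 0.850 CPM (SD, n = 3), neither passing. The middle steps Fdps, Fdft1 (squalene synthase), Sqle (squalene epoxidase) and Cyp51 (lanosterol demethylase) overlapped between the groups, with log2 fold changes of -0.21 to -0.12. Toward the end of the pathway, Msmo1, Nsdhl, Sc5d and Dhcr7 lay at -0.10 to 0.01, and Ebp, the sterol isomerase, was the second enzyme with PBS above Normoxic in every library (24.0 ± 3.15 against 19.4 ± 1.06 CPM, edgeR adjusted p = 0.282). Tm7sf2 (-0.27 ± 0.14) and Acat2 (-0.41 ± 0.20) were below Normoxic in every PBS library without passing, and Lbr overlapped (0.04 ± 0.12). In all, 8 of 19 enzymes had every PBS library below every Normoxic library (42.1%, against 14.1% of all genes), and 2 of 19 the reverse (10.5%, against 14.9%).

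Among the 4 fatty acid synthesis genes, Fasn had the largest difference. Its level was 341, 385 and 346 CPM in Normoxic and 257, 299 and 189 CPM in PBS, with no overlap, and the log2 fold change of -0.52 ± 0.15 did not pass (SE, edgeR adjusted p = 0.0646). Acaca, the acetyl-CoA carboxylase that supplies malonyl-CoA to FASN, was at -0.07 ± 0.11, Scd1 at -0.12 ± 0.18 and Scd2 at 0.11 ± 0.11, all overlapping. The median of the 4 genes was -0.09, and 0.01 with the length trend removed. The median was -0.37 for the 4 SREBP control genes and 0.15 for the 5 genes of sterol transport, efflux and LXR, with Stard4, a cholesterol carrier between membranes, lowest in the latter at -0.24 ± 0.18. Without PBS 3 these medians were -0.23 and 0.24, and that of the 5 genes was 0.05 without Normoxic 1 or without PBS 1 and 0.07 with the length trend removed.

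The 3 calls in PBS rested on small margins. Leaving out any 1 Normoxic library or PBS 1 ended all 3 edgeR calls, with adjusted p up to 0.137 for Abca1, 0.137 for Pmvk and 0.167 for Srebf2. Without PBS 2 the call of Abca1 ended (0.072), and without Gel 2 or Gel 3, which lend their spread to the fit, those of Pmvk (0.0504 and 0.0533) and Srebf2 (0.0764 and 0.067). Removing each library's trend of counts with gene length raised the calls to 9, against 8.52% of all genes, adding Mvk (adjusted p = 0.00431), Mvd (0.0229), Fasn (0.0257), Lss (0.0332) and Insig1 (0.0425) as lower and Abcg1 (0.0419) as higher. With DESeq2, 7 of the 32 were called, against 11.2% of all genes, the added ones being Mvk, Fasn, Hmgcs1 and Lss, all lower.

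A list of 51 other sterol and fatty acid genes, 50 of them above the filter, gave further measurements in PBS versus Normoxic. Of 28 other sterol genes, 4 rose and 3 fell (25%), and of 22 other fatty acid genes, 1 rose and 1 fell (9.09%), against 6.34% of all genes called, 4.31% higher and 2.03% lower. Plin2, Lcat, Tspo and Ch25h rose. Plin2, which coats lipid droplets, was at 7.50, 7.32 and 7.45 CPM in Normoxic and 19.1, 14.3 and 20.5 CPM in PBS, a 2.45-fold rise (edgeR adjusted p = 0.0013). Lcat, which esterifies cholesterol in lipoproteins, was at 3.30 ± 0.981 CPM in Normoxic and, after a 3.20-fold rise, at 10.5 ± 3.21 CPM in PBS (SD, n = 3; edgeR adjusted p = 0.0042). Tspo, a mitochondrial cholesterol-binding protein of reactive glia and microglia, went from 2.91 ± 0.601 CPM up to 10.6 ± 3.27 CPM, or 3.70-fold (edgeR adjusted p = 0.00859). Ch25h, which makes the oxysterol 25-hydroxycholesterol, had 3, 6 and 1 counts in Normoxic and 33, 25 and 47 in PBS (edgeR adjusted p = 0.0118, up to 0.0624 without Normoxic 1 and 0.058 without Normoxic 3). Npc2, a lysosomal sterol carrier (higher, 1.62-fold), and Elovl6, a fatty acid elongase (lower, log2 fold change -0.47), were also called and are named after their values were seen. Both edgeR calls ended without any 1 Normoxic library, with adjusted p up to 0.115 for Npc2 and 0.131 for Elovl6. The call of Elovl6 also ended without PBS 1, PBS 3, Gel 2 or Gel 3 (edgeR adjusted p of 0.0896, 0.0502, 0.06 and 0.0547). Of 6 reactive glia markers, 6 were higher, with sums of 102 to 114 CPM in Normoxic and 890, 486 and 452 CPM in PBS 1 to 3. The part of reactive glia in these results was not tested.

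**Figure D3:**
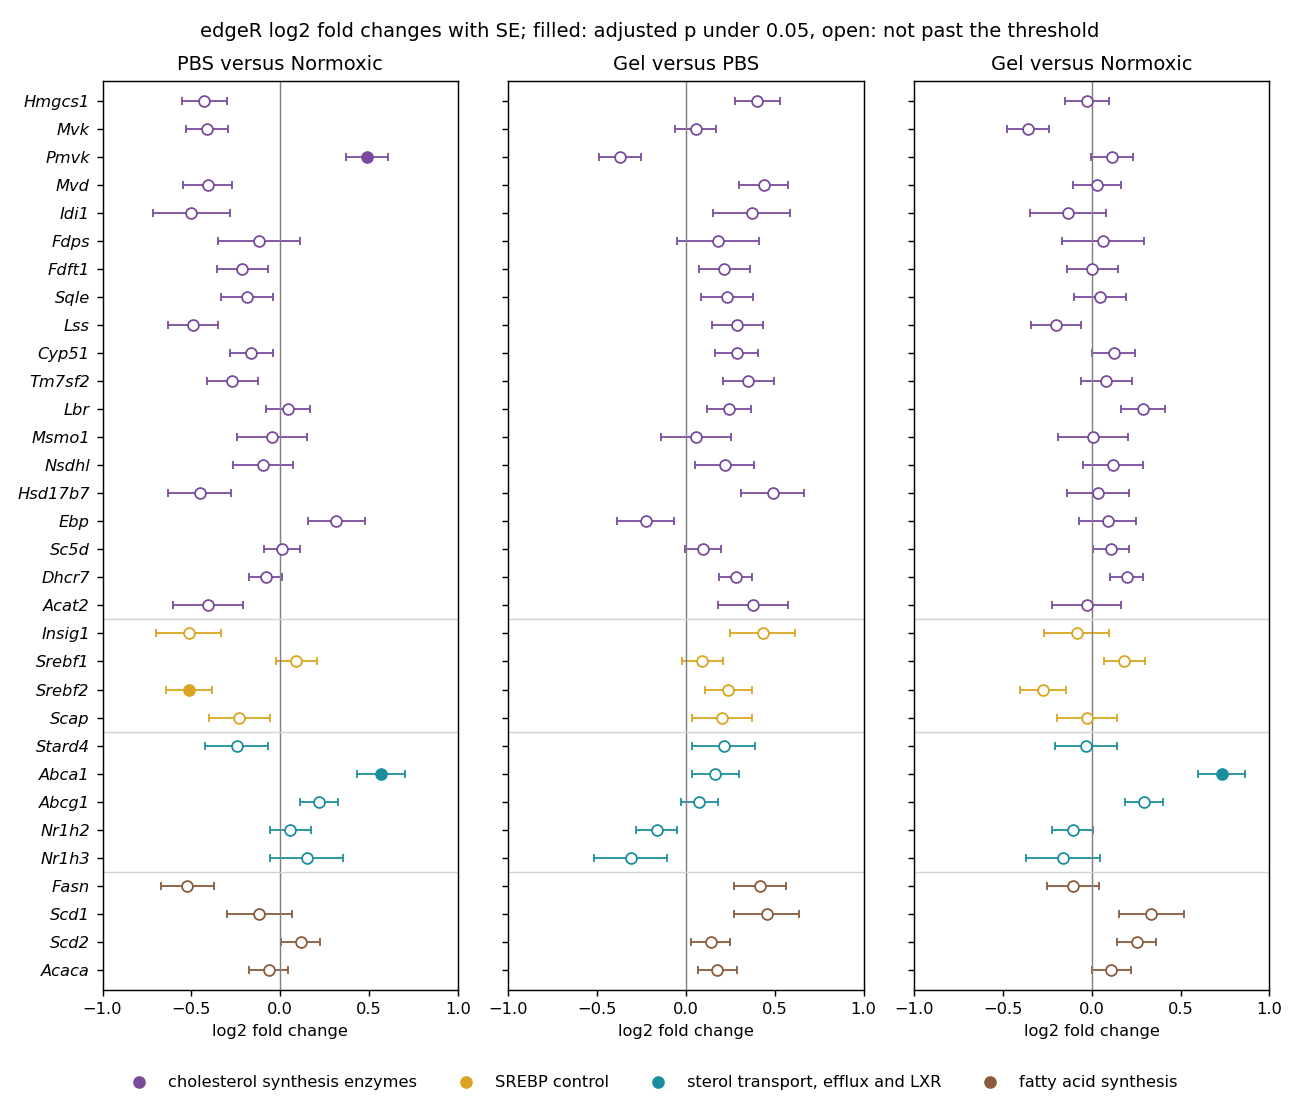
Log2 fold change (x axis) with its SE for each of the 32 genes (rows, coloured by role) in the 3 comparisons; filled points passed the edgeR test and open points did not. Abca1, Pmvk and Srebf2 were called in PBS versus Normoxic, 0 genes in Gel versus PBS and Abca1 in Gel versus Normoxic.

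Gel and PBS were compared to see what the hydrogel with PCC1 changes in OIR. None of the 32 genes passed, nor did any of 17362 genes (0% called by edgeR), and DESeq2 also called 0 of the 32 (0.408% of all genes). At an unadjusted edgeR p under 0.05, 9 of the 32 were higher and 1 lower in Gel, against 1.77% and 3.77% of all genes. The log2 fold change was above 0 in 17 of 19 enzymes (89.5%, against 47.3% of all genes), with a median of 0.24 (-0.01 over all genes). It was above 0 in 4 of 4 SREBP control genes (median 0.22), 4 of 4 fatty acid synthesis genes (0.30) and 3 of 5 genes of sterol transport, efflux and LXR (0.08). Without PBS 3 the SREBP control median was 0.08 and that of transport, efflux and LXR 0.01, and without Gel 1 they were 0.13 and 0.0013. This comparison shares its PBS libraries with PBS versus Normoxic, so that opposite signs in the 2 comparisons are not separate measurements.

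The 5 genes with the smallest p, none past the threshold, were Pmvk, Mvd, Hmgcs1, Dhcr7 and Fasn. Pmvk was at 47.7, 53.6 and 46.6 CPM in Gel 1 to 3, below all PBS libraries (-0.37 ± 0.12, SE, edgeR adjusted p = 0.65). Mvd stood at 22.8, 26.7 and 28.7 CPM in Gel, above all PBS libraries (0.44 ± 0.14, edgeR adjusted p = 0.65). The level of Hmgcs1 was 98.0, 116 and 129 CPM in Gel, where Gel 1 fell within the PBS range (0.40 ± 0.13, edgeR adjusted p = 0.65). Dhcr7, the last reductase of one branch of the pathway, had little spread in Gel, at 64.1, 67.1 and 65.1 CPM, against 52.3, 57.7 and 52.1 CPM in PBS (0.28 ± 0.09, edgeR adjusted p = 0.676). Fasn was at 372, 300.1 and 318 CPM in Gel, with Gel 2 just above the highest PBS library at 299 CPM (0.42 ± 0.15, edgeR adjusted p = 0.763). In all, 4 of 19 enzymes (Mvd, Lss, Hsd17b7 and Dhcr7) had every Gel library above every PBS library (21.1%, against 2.73% of all genes), and Pmvk alone the reverse (5.15% of all genes).

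Outside the 32 genes, Plin2 was at 11.7, 13.0 and 12.4 CPM in Gel, below all PBS libraries (-0.54 ± 0.16, edgeR adjusted p = 0.612). Lcat was at 4.24, 5.05 and 4.57 CPM in Gel, below all PBS libraries, and did not pass with edgeR (adjusted p = 0.446), while DESeq2 called it lower (log2 fold change -1.18, adjusted p = 0.00768). With edgeR, 0 of the 50 genes of the other list passed in this comparison.

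Gel and Normoxic were compared to see which differences from the Normoxic group were present with the hydrogel. Of the 32 genes, Abca1 alone passed, 1 of 32 against 1.41% of all genes. The Abca1 level was 76.1, 58.8 and 79.5 CPM in Gel 1 to 3, all above the Normoxic libraries, a 1.66-fold rise (0.73 ± 0.13, SE, edgeR adjusted p = 0.0246). The call ended without any 1 Normoxic library (edgeR adjusted p up to 0.116), without Gel 1 (0.0595) or without Gel 3 (0.107). Abcg1 was at 174, 148 and 149 CPM in Gel, above the Normoxic range of 127 to 133 CPM, and did not pass (0.29 ± 0.11, edgeR adjusted p = 0.243). Summed microglia and macrophage markers were 105 to 147 CPM in Gel, with 6 of 10 higher than in Normoxic. Summed pigment epithelium markers were 142 to 222 CPM in Gel and 27.1 to 105 CPM in Normoxic, with 0 of 7 called. The part of these cells in the Abca1 result was not tested.

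The enzymes of Gel lay around the Normoxic level. Their log2 fold change was above 0 in 14 of 19 (73.7%, against 50.1% of all genes) and its median was 0.05, which turned to -0.04 without Gel 2 and -0.02 without Gel 3. Mvk was the exception among the mevalonate enzymes, at 25.1, 28.4 and 27.7 CPM in Gel, below all Normoxic libraries as in PBS (-0.36 ± 0.12, edgeR adjusted p = 0.183, 0.0444 with the length trend removed, where 2.52% of all genes were called). Later in the pathway, Lss was also below all Normoxic libraries, at 52.6, 52.2 and 53.2 CPM in Gel (-0.20 ± 0.14, edgeR adjusted p = 0.588). In all, 2 of 19 enzymes lay below every Normoxic library (10.5%, against 12.8% of all genes) and 1 above (5.26%, against 11.1%). Srebf2 was at 202, 182 and 180 CPM in Gel, also below all Normoxic libraries (-0.28 ± 0.13, edgeR adjusted p = 0.4). Lbr, a sterol reductase of the nuclear envelope (0.29 ± 0.12), and Scd2 (0.25 ± 0.11, at 526, 482 and 554 CPM in Gel) completed the 5 genes with the smallest p and did not pass (edgeR adjusted p = 0.339 and 0.342). Of the other sterol and fatty acid genes, Plin2 rose (0.75 ± 0.16, edgeR adjusted p = 0.0492), a call that ended without any 1 Normoxic or Gel library or PBS 1 (up to 0.206), with the replicate block (0.0685), with limma-voom (0.0934) and with limma on FPKM (0.0569 and 0.0825).

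The role groups differed in how they ran across libraries. Relative to the Normoxic mean, the mean log2 level of the 19 enzymes was -0.33, -0.17 and -0.07 in PBS 1 to 3 and -0.17, 0.11 and 0.12 in Gel 1 to 3, so that Gel 1 lay within the PBS range and the other Gel libraries above it. Among PBS libraries, PBS 1 was the lowest in 14 of 19 enzymes, and among Gel libraries, Gel 1 was the lowest in 14 of 19. The fatty acid genes did not share this order: their mean was -0.22, -0.04 and -0.22 in PBS and 0.17, 0.06 and 0.21 in Gel, with every Gel library above every PBS library. Summed CPM of the same genes overlapped, at 800, 955 and 749 in PBS and 1030, 904 and 1000 in Gel. Means of the 22 other fatty acid genes overlapped too, at 0.06, 0.06 and 0.12 in PBS and 0.13, 0.09 and 0.12 in Gel. Enzyme mean minus fatty acid mean was -0.11, -0.13 and 0.15 in PBS and -0.34, 0.05 and -0.09 in Gel. In Normoxic this difference was -0.07 to 0.04, and all groups overlapped. The mean of the exporters Abca1 and Abcg1 was 0.44, 0.47 and 0.26 in PBS and 0.63, 0.35 and 0.54 in Gel, against -0.10 to 0.09 in Normoxic. The difference between the enzyme mean and the exporter mean was -0.77, -0.64 and -0.33 in PBS and -0.80, -0.24 and -0.42 in Gel, against -0.07 to 0.08 in Normoxic. Against all 5 genes of sterol transport, efflux and LXR, the difference was smaller, at -0.53, -0.36 and -0.13 in PBS and -0.30, 0.01 and -0.08 in Gel, with Gel 2 inside the Normoxic range of -0.05 to 0.03. Summed Muller glia markers were also lowest in replicate 1 of both groups, at 3540, 4240 and 4660 CPM in PBS and 3900, 4760 and 5100 CPM in Gel, against 4460 to 4910 CPM in Normoxic. These means describe the libraries and carry no test.

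**Figure D4:**
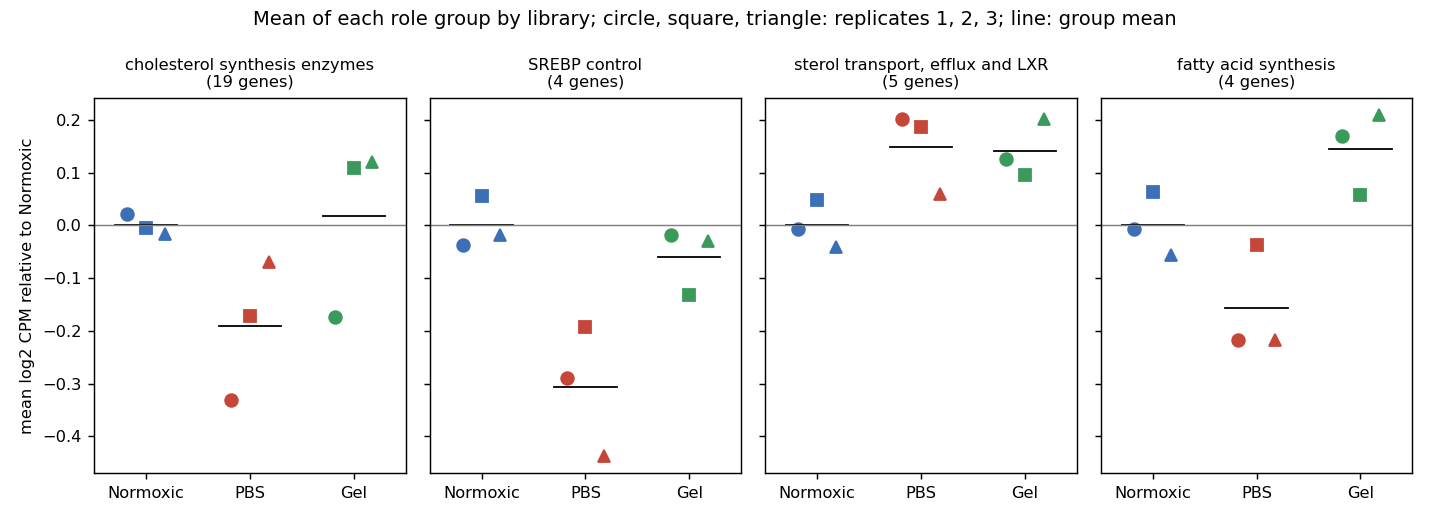
Mean log2 CPM of each role group relative to its Normoxic mean (y axis) in each library, by group (x axis); marker shapes show replicates 1 to 3 and lines the group means. Enzymes were lowest in PBS 1 (-0.33). The mean of the fatty acid genes was higher in every Gel than in every PBS library, while their summed CPM overlapped.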

How the data were processed

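Bulk RNA sequencing of 9 mouse retina libraries was deposited by the authors as a table of gene counts and a table of FPKM values. The submitters' processing notes list GRCm39, DESeq2 1.4.5, RSEM 1.3.1 and Bowtie2 without their roles. No source used here says whether the deposited counts are rounded estimates. The FPKM values deposited by the authors equal the counts divided by library total and 1 length per gene (relative spread at most 2.9e-10), so they served for levels per length and an alternative. Columns were matched to samples by library name.

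Genes were filtered with filterByExpr (minimum count 10), which kept 17362 genes (65.1%). Counts were scaled by TMM and tested with the quasi-likelihood F test of edgeR 4.0.16 (R 4.3.3) in 1 fit of all 9 libraries whose design held the group alone. Benjamini-Hochberg adjustment ran over the 17362 genes, and a gene was called at an adjusted p under 0.05. SE is the size of the log2 fold change over the root of F. CPM use library totals, and means over genes use log2 CPM with a prior count of 2. The procedure was checked on simulated data. Total counts of 29324142 to 35663470 per library leave Nr1h3 and Ch25h with few counts and less precision.

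The 32 genes, the other lists and the tests were chosen with earlier results of these data known. In each comparison, genes given with every library are the called ones or, where fewer than 3 were called, the 5 with the smallest p, plus up to 6 called genes of the other list, some of which are not reported here. Further members were described by role, some with every library, chosen after their values were seen. Promoters come from RefSeq (GRCm38.p6), and no coordinates of the count table were used.

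Alternatives were RLE size factors, DESeq2 1.42.0, limma-voom (limma 3.58.1), no filter, a filter of 1 CPM in 3 libraries, only the 2 groups compared, the replicate number as a block, length trends removed with offsets (with and without the block), limma on log2(FPKM + 0.1) and log2(FPKM + 1), and each library left out.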

Additional observations from a re-analysis of the deposited data

How the results depend on the processing

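The number of the 32 genes called in PBS versus Normoxic was 3, and 7 with DESeq2, 1 with only the 2 groups compared, 9 with the length trend removed, and 9 with the length trend removed and the replicate block. Leaving out 1 library gave 0 to 4. In Gel versus Normoxic the number was 1, and 2 with the length trend removed (Mvk added), 0 with limma on log2(FPKM + 0.1) and on log2(FPKM + 1), and 0 to 1 with 1 library left out. In Gel versus PBS it was 0 under every alternative listed. With the replicate block alone the number was 2 in PBS versus Normoxic, where Pmvk did not pass (edgeR adjusted p = 0.0571), 0 of 32 for Gel against PBS and 1 for Gel against Normoxic. Same-numbered libraries deviated together only in part (correlations of -0.209 to 0.362). The highest were 0.362 for PBS 3 with Gel 3 and 0.326 for PBS 1 with Gel 1. With 3 libraries per group, these values cannot tell whether same-numbered libraries share more than a number. For Abca1, limma on FPKM gave adjusted p of 0.0689 and 0.0787 in PBS versus Normoxic. The number of enzymes with a log2 fold change below 0 in PBS versus Normoxic ran from 12 (without PBS 1) to 16 over the alternatives, and that above 0 in Gel versus PBS from 16 to 17. In Gel versus Normoxic the enzyme median was 0.15 without Gel 1. Over all genes, the calls of PBS versus Normoxic numbered 1101, and 1936 with DESeq2 and 455 to 1184 with 1 library left out. Those of Gel versus PBS numbered 0, and 64 with DESeq2, 24 with no filter, 3 with the length trend removed and 0 to 12 with 1 library left out. Those of Gel versus Normoxic numbered 245, and 854 with DESeq2, 643 with only the 2 groups compared, 438 with the length trend removed (396 with the block as well), 389 with no filter and 47 to 735 with 1 library left out.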
